A study of Mus musculus with 12 samples.

Results

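The genes that make cholesterol and fatty acids, with the regulators that switch them on, were followed in 12 mouse embryos at 8.5 days post coitum. Members were chosen by gene symbol, as every probe of the array's platform table whose symbol was among 30 listed genes. Of the 30 genes, 27 had at least 1 probe, and they had 43 of the 45281 probes of the array. Probes entered the tests if 3 or more of the 12 arrays detected them, at a detection p-value under 0.01. This left 34 member probes of 25 genes among 19595 tested probes of 10764 genes. Hmgcs1, Fdft1 and Acat2 were not analysed here, and the probes of Acaca and Me1 were detected on 0 of 12 arrays. The 25 genes comprised 4 regulators, 5 genes of the mevalonate steps, 10 genes of the sterol steps, the sterol carrier gene Stard4 and 5 fatty acid genes.

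The embryos formed 4 groups of 3 in the C57BL6/J strain, by genotype (Cited2 -/- or wildtype) and by the diet of the mother. They were Cited2 -/- embryos of mothers on the high-fat diet, wild-type embryos of mothers on that same diet, Cited2 -/- embryos from the control diet, and wild-type embryos from the control diet. Cited2 encodes a transcriptional co-regulator needed for heart, left-right and neural development. Every mother was Cited2 heterozygous, received her diet from 6 weeks of age, was mated to a heterozygous male after 8 weeks on it, and stayed on it while pregnant. The yolk sac and allantois had been dissected away, so that each array held RNA of the rest of 1 whole embryo. The labels give neither sex nor litter. They list every sample as its own embryo, so p-values measure the spread between embryos. The diet was given to the mothers, and the labels do not say how many mothers there were. Where embryos had the same mother, the diet comparisons rest on fewer independent units than the number of embryos. The sample titles hold 6 different numbers. Each number is shared by 1 knockout and 1 wild-type embryo of the same diet. Whether a number marks a litter could not be decided, and the main fits do not pair these embryos.

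Between 16584 and 18853 probes were detected per array. The Cited2 probe was detected on 1 of 6 knockout arrays and on 6 of 6 wild-type arrays. The knockout array with a detected signal was that of high-fat knockout embryo 3, with a deposited signal of 119.7 against 1615.5 to 4210.3 in wild-type embryos. The arrays fell into 2 sets of 6 that the labels do not name, set apart by the variation between beads of a probe (a median of at least 21.4% per array in set B and of at most 20.5% in set A) and by a first principal component with 47.7% of the variance. Set A held embryo 1 of each group and embryo 2 of both high-fat groups, so the sets were balanced between genotypes but not between diets, with 2 high-fat and 4 control-diet embryos in set B, and 4 high-fat and 2 control-diet embryos in set A. The arrays of set A are also the first 6 of the sample list. Markers of embryonic tissues were present, with 12 to 14 of 15 measured genes of that list detected per embryo. Of 17 yolk sac markers, 12 to 16 were detected per embryo, although the yolk sac had been removed. Their summed signal spanned 7704.2 to 45360.5 in high-fat knockout embryos, 7413.2 to 18846.9 in high-fat wild-type embryos, 8003 to 32522.2 in control-diet knockout embryos and 5642.9 to 15757.9 in control-diet wild-type embryos. All 14 tested yolk sac genes had positive knockout minus wild-type differences averaged over diets, with a median of 0.61 on the log2 scale and none past the adjusted threshold. Without control-diet knockout embryo 3 all 14 were positive with a median of 0.38, and on the control diet 13 of 14 were positive with a median of 0.34, against 14 of 14 and 0.70 with it. High-fat knockout embryo 3 was the highest of the 12 for 13 of the 14 genes, and the difference without that embryo is not given. On the high-fat diet the mean log2 signal of the 17 markers was 7.63, 8.08 and 9.32 in knockout embryos. In wild-type embryos on that diet it was 8.50, 7.98 and 6.93, so these groups overlapped. The yolk sac marker Afp was detected on 0 of 12 arrays.

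Cells make cholesterol from acetyl-CoA through mevalonate and squalene, and fatty acids from acetyl-CoA through malonyl-CoA. Both pathways are under sterol regulatory element-binding proteins, encoded by Srebf1 and Srebf2. When membrane sterol is low, the escort protein SCAP carries these precursors from the endoplasmic reticulum to the Golgi apparatus, where proteases free the part that enters the nucleus. When sterol is plentiful, INSIG proteins hold SCAP back, and the genes of the pathway are transcribed less. The SREBF2 product acts mainly on cholesterol genes and one form of the SREBF1 product on fatty acid genes, commonly together with NF-Y, which binds CCAAT boxes. Embryos use cholesterol for membranes and for hedgehog signalling, and loss of late sterol enzymes such as DHCR7 disturbs human and mouse development.

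Promoter windows are shown for 4 genes. Msmo1, Hsd17b7 and Insig1 were among those whose signal stood highest in a single embryo, and Srebf2 is the regulator of the pathway. Each window runs from 250 bases before to 50 after the transcription start in RefSeq on build GRCm38.p6. It is written 5′ to 3′ on the strand of the gene, with CCAAT or its reverse complement in capitals.
Msmo1 promoter, chr8:64733529-64733828, minus strand: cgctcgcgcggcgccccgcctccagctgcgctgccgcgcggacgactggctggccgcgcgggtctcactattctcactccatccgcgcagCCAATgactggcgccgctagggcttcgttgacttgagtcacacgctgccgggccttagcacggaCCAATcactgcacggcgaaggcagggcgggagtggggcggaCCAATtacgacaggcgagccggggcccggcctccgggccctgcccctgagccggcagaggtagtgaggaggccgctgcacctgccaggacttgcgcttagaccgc
Hsd17b7 promoter, chr1:169969156-169969455, minus strand: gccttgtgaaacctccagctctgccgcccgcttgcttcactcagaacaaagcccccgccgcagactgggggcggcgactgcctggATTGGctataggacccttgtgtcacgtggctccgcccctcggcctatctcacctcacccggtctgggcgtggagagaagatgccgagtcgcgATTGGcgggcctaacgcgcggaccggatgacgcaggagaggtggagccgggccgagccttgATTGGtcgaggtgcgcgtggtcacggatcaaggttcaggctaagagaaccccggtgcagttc
Insig1 promoter, chr5:28071162-28071461, plus strand: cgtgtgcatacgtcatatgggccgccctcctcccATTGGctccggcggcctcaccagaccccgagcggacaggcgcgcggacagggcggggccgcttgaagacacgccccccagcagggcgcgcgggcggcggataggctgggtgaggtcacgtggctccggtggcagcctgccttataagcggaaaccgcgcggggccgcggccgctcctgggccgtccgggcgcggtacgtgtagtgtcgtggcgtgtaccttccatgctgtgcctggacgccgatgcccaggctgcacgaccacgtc
Srebf2 promoter, chr15:82147019-82147318, plus strand: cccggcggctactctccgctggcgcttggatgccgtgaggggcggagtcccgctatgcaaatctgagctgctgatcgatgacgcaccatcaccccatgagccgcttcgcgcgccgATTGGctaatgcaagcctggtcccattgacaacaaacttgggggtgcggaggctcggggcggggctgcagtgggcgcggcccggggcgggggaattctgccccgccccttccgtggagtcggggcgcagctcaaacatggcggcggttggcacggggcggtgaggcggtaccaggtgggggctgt
Windows were found for 20 of the 25 tested genes. The letters CCAAT, searched on both strands, stood in the windows of 18 of these 20 genes (90%), against 43.0% of the 8696 tested genes with a window and 41.1% of the 27025 genes in the table. Counted by window, 19 of 26 member windows (73.1%) held them, against 37.5% of the 11121 windows of tested genes. Msmo1 and Hsd17b7 each had 3 matches, and Insig1 and Srebf2 had 1 each. The letters TCACNCCAC of a sterol regulatory element, searched on both strands, stood in 0 of 26 member windows and in 1.14% of the windows of tested genes, so that it overlapped no CCAAT match in the member windows. Among the listed genes without a tested probe, the window of Hmgcs1 held 1 match. These are matches of letters in short windows, and binding was not measured.

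In the comparison of Cited2 -/- with wild-type embryos, no member passed the test. The test was limma with Benjamini-Hochberg adjustment at 0.05 over all 19595 probes. It called 14 probes (0.0714%) in this comparison averaged over diets, 3 (0.0153%) on the high-fat diet and 8 (0.0408%) on the control diet. At an unadjusted p-value under 0.05, 0 of the 25 genes stood out in any of these 3 comparisons at their brightest probe, against 3.35%, 3.38% and 1.62% of all probes. Among the dimmer member probes, the second Fdps probe did so on the control diet (0.65 ± 0.30, SE, unadjusted p = 0.0491 by limma). The second Sqle probe did so on the high-fat diet (0.37 ± 0.17, SE, unadjusted p = 0.0441 by limma). At the brightest probes with array set as a block there were 2 genes averaged over diets, against 5.61% of all probes. They were Mvk at -0.35 and Stard4 at 0.27 (adjusted p = 0.855 and 0.850 by limma). There was 1 on the high-fat diet (Mvk at -0.54), against 5.72%, and there were 2 on the control diet (Stard4 at 0.52 and Scd1 at 0.46), against 3.13%. The signs were uneven. Averaged over diets, 21 of 25 members had a positive knockout minus wild-type difference, with a median of 0.11 on the log2 scale, while 50.5% of all tested genes were positive with a median of 0.001. On the control diet 23 of 25 were positive with a median of 0.22, against a median of 0.009 over all tested genes. On the high-fat diet 14 of 25 were positive with a median of 0.014, against -0.002 over all tested genes. Without control-diet knockout embryo 3, the control-diet count was 20 of 25 with a median of 0.085, and the averaged count was 18 of 25 with a median of 0.044. Within array set A, with 1 embryo per group on the control diet, the control-diet median was -0.01, and within set B it was 0.33. The median residual SD between embryos of a group was 0.269 for the members and 0.221 for all tested genes. For 0 of 25 members did the 6 knockout embryos lie apart from the 6 wild-type embryos (0.25% of all probes), and 0 of 25 separated the genotypes on the control diet (5.06% of all probes).

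**Figure D1:**
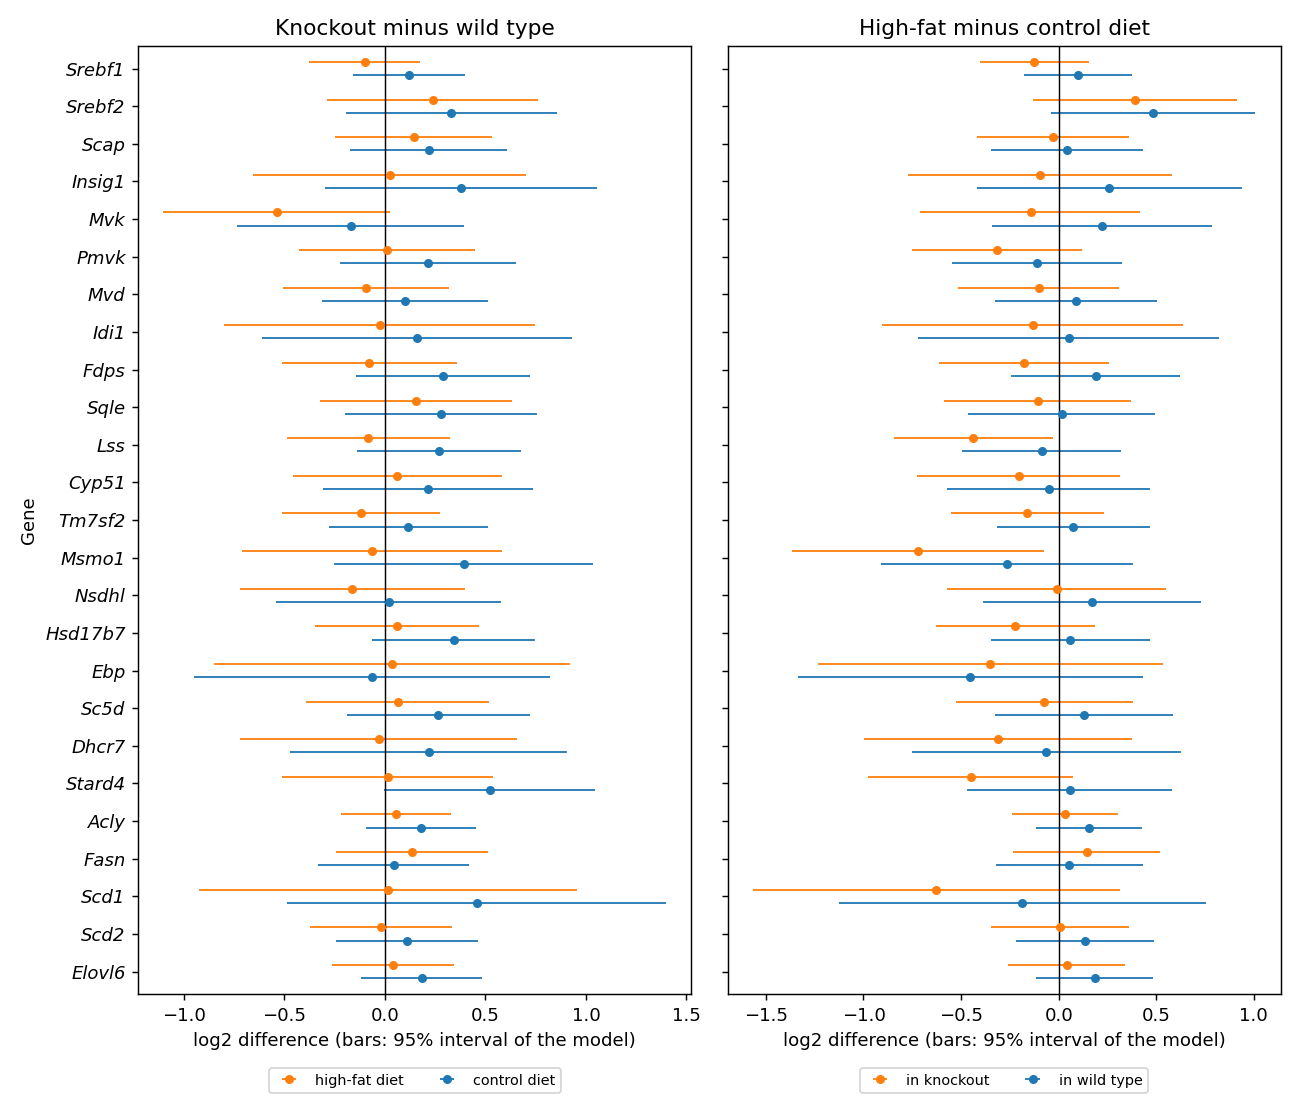
Differences in log2 signal for the 25 tested genes at their brightest probe. Points are model estimates and bars their 95% intervals, on the left for knockout minus wild type on each diet and on the right for high-fat minus control diet in each genotype. The intervals span 0 except those of Lss and Msmo1 in knockout embryos, and none of the genes passed the adjusted threshold. On the left, control-diet points lie right of 0 for 23 of 25 genes. On the right, points in knockout embryos lie left of 0 for 20 of 25.

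In the comparison of the maternal diets, no member and no probe of the array passed the adjusted threshold (0 of 19595, 0%) averaged over genotypes, in knockout or in wild-type embryos. Unadjusted p-values under 0.05 were reached by 11.8% of all probes in the averaged comparison, 6.15% in knockout and 4.16% in wild-type embryos. Among the members, Srebf2 and Msmo1 did so in the averaged comparison, Lss and Msmo1 in knockout embryos and none in wild-type embryos, at their brightest probes. That is 2 of 25, 2 of 25 and 0 of 25. For 0 of 25 members did the 6 high-fat embryos lie apart from the 6 control-diet embryos (0.475% of all probes). When limma weighted the arrays by their scatter, 4 members passed in the averaged comparison (Srebf2, Ebp, Stard4 and Scd1), where 31.3% of all probes did, and Srebf2 in wild-type embryos, where 7.48% did. With array set as a block as well, 0 members passed. In knockout embryos 20 of 25 members had a negative high-fat minus control difference, including 15 of 15 mevalonate and sterol genes, with medians of -0.13 over the members and -0.18 over those 15. All tested genes had a median of 0.045. Without control-diet knockout embryo 3, 9 of the 15 were negative, with a median of -0.01, and 13 of the 25. In wild-type embryos 18 of 25 members were positive, with a median of 0.059 against 0.056 over all tested genes. Of the fatty acid genes, 4 of 5 were positive in knockout embryos, and Scd1 was at -0.63. Their median of 0.032 was near that of all tested genes, of which 57.5% were positive. The difference between the sterol and fatty acid lists was not tested. The fatty acid median was 0.006 with 3 of 5 positive with array set as a block. It was 0.074 with 4 of 5 positive without control-diet knockout embryo 3. The interaction of genotype and diet was negative for 23 of 25 members, with a median of -0.20, against -0.02 over all tested genes, and 17 of 25 without that embryo. No probe passed in the interaction (0 of 19595, 0%) and 1.26% had an unadjusted p-value under 0.05. The genotype and diet comparisons share embryos, so their counts are not separate evidence. Where embryos had the same mother, p-values that count embryos can overstate the evidence for a diet difference.

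Scaling each array to its median in place of quantile normalization moved the median of all genes by -0.11 in the averaged diet comparison, by -0.17 in wild-type embryos and by 0.11 in the interaction. The counts of positive members then became 4 of 25 averaged over genotypes, in place of 11, and 8 of 25 in wild-type embryos, in place of 18. They became 2 of 25 in knockout embryos, in place of 5, and 6 of 25 in the interaction, in place of 2. In the authors' processed values they were 6, 14, 4 and 2 of 25. Relative to the median of all genes, members moved little between quantile and median scaling. Their median was lower by 0.061 and 0.085 in the averaged diet comparison, and 7 and 6 of 25 members lay above the median of all genes. In the interaction the members' median was -0.184 and -0.187 relative to all genes, and 2 of 25 lay above the median of all genes either way.

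The widest departure of the members from genes at large was in 1 embryo. Control-diet knockout embryo 3 had the highest signal of the 12 embryos for 14 of 25 members (56%), against 4.20% of all tested genes. Among the 15 mevalonate and sterol genes it was highest for 10 (66.7%), and its median deviation from the 12-embryo mean was 0.49 on the log2 scale, or 0.42 over the 25 members, against -0.059 over all tested genes. This was noticed after the values had been seen, and carries no test. Set beside only the other 5 arrays of set B, this embryo stood above all of them for 17 of 25 members (68%) and for 12 of 15 mevalonate and sterol genes (80%), against 9.91% of all tested genes. Genes with 1 further tested probe or more gave 9 additional probes, of which 5 were also highest in this embryo. These 5 were probes of Insig1, Fdps, Sqle and Nsdhl, already highest there at their brightest probe, so they add no further gene. The share among further probes of all tested genes is not given.

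Steps from squalene to cholesterol showed the pattern across the pathway. Sqle, squalene epoxidase, was at 11.41 on the log2 scale in control-diet knockout embryo 3 and between 10.50 and 10.82 in the other embryos of set B. Cyp51, which removes a methyl group from lanosterol, was at 8.75 against 7.66 to 8.10. Hsd17b7, a reductase that works in the demethylation of sterols, was at 10.79 against 9.90 to 10.05. These 3 enzymes act at separate points of the sequence, and each had no overlap between this embryo and the rest of its array set. Lss, which closes squalene epoxide into lanosterol, was at 9.84 against 8.98 to 9.39. Nsdhl, a dehydrogenase of the same demethylation, was at 7.25 against 6.33 to 6.90. Dhcr7, the last reductase of the pathway, was at 7.82 against 7.03 to 7.40. Upstream, Fdps, which makes farnesyl diphosphate, was at 12.96 against 12.09 to 12.55. Set A reached above these set B ranges for Sqle (11.16), Cyp51 (8.37), Hsd17b7 (10.18), Nsdhl (7.24) and Fdps (12.68). It did not for Lss (9.22) and Dhcr7 (6.95). Nsdhl was thus nearly level between control-diet knockout embryo 3 and an embryo of set A. Some members did not show the pattern. Mvk, Tm7sf2 and Ebp in the mevalonate and sterol sequence, Srebf1 and Scap among the regulators, and Fasn, Scd2 and Elovl6 did not stand above all other set B embryos in control-diet knockout embryo 3. The probes of Mvk, Tm7sf2 and Fasn were dim, detected on 6, 5 and 5 of 12 arrays, which limits what can be seen for these genes.

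**Figure D2:**
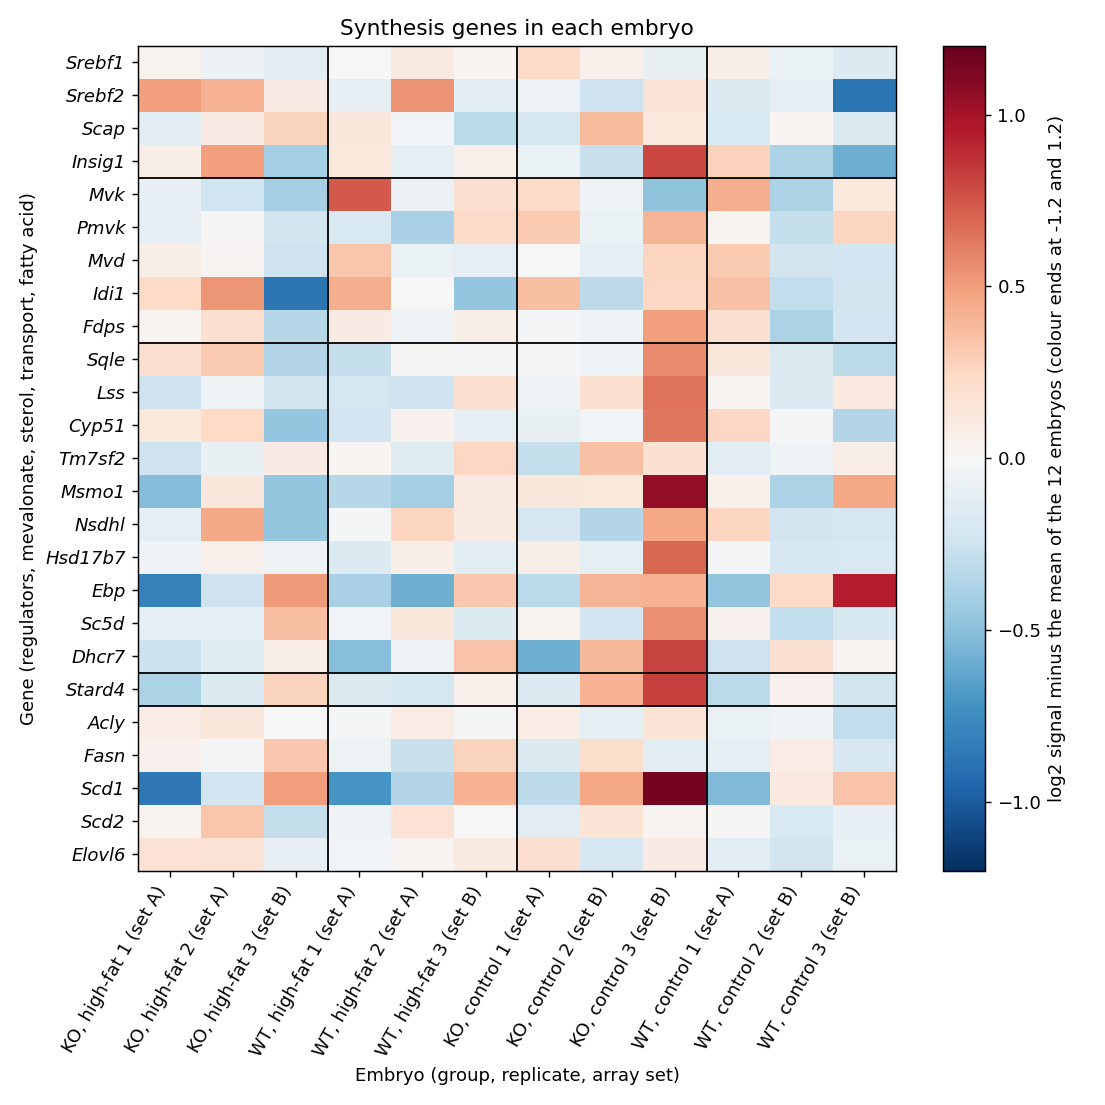
Log2 signal of the 25 tested genes in each of the 12 embryos, as the deviation from the mean of the 12 embryos, with genes grouped by role and embryos by group. Red is above and blue below the mean. The column of control-diet knockout embryo 3 is red for 22 of 25 genes, with Scd1 and Msmo1 the deepest, and Ebp and Scd1 alternate with the array set.

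High-fat knockout embryo 3 was among the lowest for sterol genes. It was lowest of the 12 for 5 of 15 mevalonate and sterol genes (33.3%) and for 6 of 25 members (24%), against 10.3% of all tested genes, with a median deviation of -0.25 for the 15. Idi1, which isomerises isopentenyl diphosphate, was at 4.66 there and between 5.07 and 6.06 in the other embryos. Its probe was dim, detected on 10 of 12 arrays and on 2 of 3 high-fat knockout arrays. Its deposited signal in high-fat knockout embryo 3 was 8.4, under that array's median of 11.3, so 4.66 is a value near the floor. Yolk sac marker signal was the highest of the 12 in this embryo, at 45360.5, and next in control-diet knockout embryo 3, at 32522.2, with 5642.9 to 18846.9 in the other embryos. The 2 embryos with the most yolk sac signal thus had the lowest and the highest median deviation of the mevalonate and sterol genes. Control-diet wild-type embryo 2 was close to the lowest, at -0.22, with a yolk sac signal of 8228.8. It had 2 of the 15 genes above the 12-embryo mean, against 4 in high-fat knockout embryo 3. Whether yolk sac material has a part in these medians was not tested. In bulk RNA more cells of a type cannot be told apart from more RNA per cell.

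**Figure D3:**
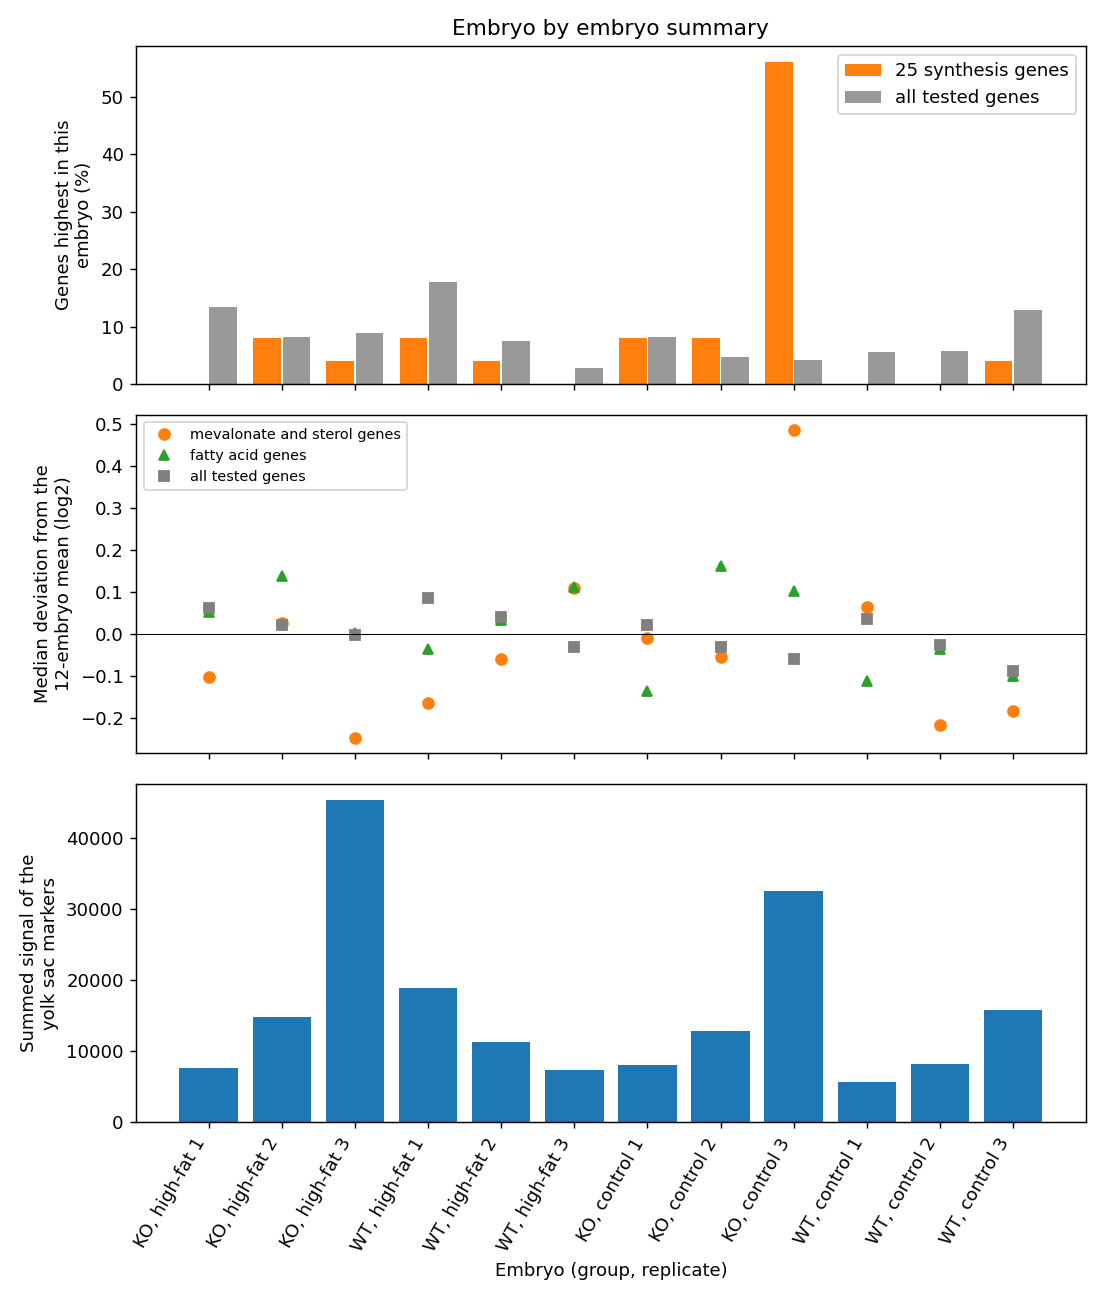
Summary of the 12 embryos. The top bars give the percentage of the 25 synthesis genes, and of all tested genes, for which an embryo had the highest signal, with 56% and 4.20% in control-diet knockout embryo 3. The middle points give the median deviation from the 12-embryo mean for mevalonate and sterol genes, fatty acid genes and all tested genes, and the bottom bars give the summed deposited signal of the yolk sac markers.

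Insig1 was the regulator whose highest value lay in control-diet knockout embryo 3. Insig1, whose product retains SCAP, was at 5.95, 6.37 and 5.46 in high-fat knockout embryos and at 6.00, 5.77 and 5.93 in high-fat wild-type embryos. It was at 5.80, 5.60 and 6.67 in control-diet knockout embryos and at 6.15, 5.50 and 5.28 in control-diet wild-type embryos. The groups overlapped, and within the control diet knockout embryo 3 was the only knockout above all wild-type embryos. On the control diet the knockout minus wild-type difference was 0.38 ± 0.31 (SE, adjusted p = 1.00 by limma, n = 3 each), and 0.055 ± 0.28 without that embryo.

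Srebf2 was at 8.90, 8.83 and 8.50 in high-fat knockout embryos and at 8.30, 8.94 and 8.27 in high-fat wild-type embryos. It was at 8.35, 8.15 and 8.55 in control-diet knockout embryos and at 8.24, 8.29 and 7.52 in control-diet wild-type embryos. The lowest value was control-diet wild-type embryo 3, and the diet groups overlapped. The high-fat minus control difference averaged over genotypes was 0.44 ± 0.17 (SE, unadjusted p = 0.0240, adjusted p = 0.410 by limma, n = 6 each). With array set as a block it was 0.35 ± 0.16, with an adjusted p of 0.492 by limma. The second Srebf2 probe had a difference in the opposite direction, of -0.09 ± 0.12 (SE), with means of 7.32 ± 0.15 on the high-fat diet and 7.41 ± 0.28 on the control diet (SD, n = 6 each).

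Srebf1, the regulator of fatty acid genes, had the smallest range of the 4 regulators over the 12 embryos. It was at 6.12, 6.01 and 5.95 in high-fat knockout embryos and at 6.08, 6.19 and 6.11 in high-fat wild-type embryos. It was at 6.32, 6.14 and 5.99 in control-diet knockout embryos and at 6.16, 6.00 and 5.92 in control-diet wild-type embryos. The groups overlapped throughout, with a knockout minus wild-type difference of 0.01 averaged over diets and a 95% interval of -0.19 to 0.21. Scap was at 7.34, 7.57 and 7.74 in high-fat knockout embryos and at 7.61, 7.45 and 7.16 in high-fat wild-type embryos. It was at 7.28, 7.85 and 7.60 in control-diet knockout embryos and at 7.29, 7.49 and 7.30 in control-diet wild-type embryos. Its groups overlapped too, with a knockout minus wild-type difference of 0.18 and a 95% interval of -0.09 to 0.46. The second Scap probe, detected on all 12 arrays, had a difference of 0.23 ± 0.17 (SE). It ordered the embryos differently. Its highest value was in high-fat knockout embryo 1 (7.21), and that of the brightest probe in control-diet knockout embryo 2 (7.85). The values in single embryos thus depended on the probe.

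Msmo1, the sterol oxidase that starts removal of the methyl groups at carbon 4, had a range of 0.72 between its group means, as did Srebf2, the widest of the members. It was at 9.53, 10.19 and 9.59 in high-fat knockout embryos and at 9.70, 9.64 and 10.16 in high-fat wild-type embryos. It was at 10.18, 10.18 and 11.10 in control-diet knockout embryos and at 10.11, 9.67 and 10.51 in control-diet wild-type embryos. Group means were 9.77 ± 0.37, 9.83 ± 0.28, 10.49 ± 0.53 and 10.10 ± 0.42 in the same order (SD, n = 3 each). The diets overlapped in both genotypes, in knockout embryos by the 10.19 of high-fat embryo 2 and the 10.18 of control-diet embryos 1 and 2. The high-fat minus control difference in knockout embryos was -0.72 ± 0.30 (SE, unadjusted p = 0.0317, adjusted p = 0.788 by limma, n = 3 each), and -0.42 ± 0.28 without control-diet knockout embryo 3. Averaged over genotypes it was -0.49 ± 0.21 (adjusted p = 0.416 by limma). In knockout embryos it was -0.33 within array set A and -1.05 within set B.

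At the brightest probe of each gene, Lss was the only member whose diet groups did not overlap in knockout embryos, where 12.8% of all probes did not overlap. It was at 8.95, 9.15 and 8.98 in high-fat knockout embryos, against 9.15, 9.39 and 9.84 in control-diet knockout embryos, so that the groups met at 9.15 to 2 decimals. The difference was -0.44 ± 0.19 (SE, adjusted p = 0.788 by limma, n = 3 each), and -0.25 ± 0.17 without control-diet knockout embryo 3. The second Lss probe was detected on 7 of 12 arrays, and its groups overlapped. A dimmer Nsdhl probe, detected on 11 of 12 arrays, also separated these groups, at 5.22, 5.62 and 5.97 in high-fat knockout embryos, against 6.11, 6.26 and 6.47 in control-diet knockout embryos. Its difference was -0.67 ± 0.21 (SE, unadjusted p = 0.00709, adjusted p = 0.720 by limma, n = 3 each), and -0.55 ± 0.15 with array set as a block (adjusted p = 0.475 by limma). The 4 tested Nsdhl probes did not share this difference, since it was -0.01 at the brightest and 0.04 and -0.30 at the others. Averaged over genotypes, the dimmer probe had a difference of -0.44 ± 0.15, and of -0.32 ± 0.11 with array set as a block (adjusted p = 0.407 and 0.425 by limma).

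At the brightest probes, Mvk, mevalonate kinase, was the only member whose genotype groups did not overlap on the high-fat diet, where 6.24% of all probes did not overlap. It was at 5.28, 5.13 and 4.98 in high-fat knockout embryos and at 6.12, 5.31 and 5.57 in high-fat wild-type embryos. It was at 5.60, 5.32 and 4.90 in control-diet knockout embryos and at 5.82, 5.00 and 5.51 in control-diet wild-type embryos. The probe was dim, detected on 0 of 3, 2 of 3, 2 of 3 and 2 of 3 arrays in that order. Since it was not detected in high-fat knockout embryos, the ratio of group means on that diet is a bound, with the wild-type mean at least 1.35-fold higher. The bound describes the measured means only, and the wild-type mean includes an array on which the probe was not detected. The fitted difference was -0.54 ± 0.26 (SE, unadjusted p = 0.0599, adjusted p = 1.00 by limma, n = 3 each), so the absence of a difference was not excluded. For this bound the dim group is set at the lowest normalized signal of a detected probe, or at its own signal where that is higher. The second Sqle probe, detected on all 12 arrays, also separated the genotypes on this diet, in the other direction from Mvk. It was at 7.13, 7.39 and 7.05 in high-fat knockout embryos, against 6.98, 6.69 and 6.78 in high-fat wild-type embryos. Its difference was 0.37 ± 0.17 (SE, unadjusted p = 0.0441, adjusted p = 1.00 by limma, n = 3 each), while the brightest Sqle probe had one of 0.16 ± 0.22 and overlapping groups.

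For 3 members the array sets were fully apart. Ebp, the sterol isomerase, lay between 8.56 and 9.27 in set B and between 7.53 and 8.08 in set A. Scd1, a stearoyl-CoA desaturase that makes monounsaturated fatty acids, lay between 8.39 and 9.42 in set B and between 7.41 and 8.05 in set A. Dhcr7 lay between 7.03 and 7.82 in set B and between 6.41 and 6.95 in set A. The 2 sets did not overlap for these 3 of 25 genes, all higher in set B, as for 11.1% of all probes. Counting both directions, the sets did not overlap for 16.7% of all probes, so this separation was not particular to the members. Set B minus set A was 0.94 for Ebp, 0.99 for Scd1 and 0.61 for Dhcr7 on the log2 scale.

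By group, Ebp was at 7.53, 8.08 and 8.84 in high-fat knockout embryos and at 7.94, 7.74 and 8.65 in high-fat wild-type embryos. It was at 8.01, 8.74 and 8.75 in control-diet knockout embryos and at 7.86, 8.56 and 9.27 in control-diet wild-type embryos. The lower values of each group were those of set A. The high-fat minus control difference averaged over genotypes was -0.40 ± 0.29 without regard to array set and -0.10 ± 0.14 with array set as a block (SE, n = 6 each). Neither passed, with adjusted p-values of 0.509 and 0.831 by limma.

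Scd1 was at 7.41, 8.05 and 8.77 in high-fat knockout embryos and at 7.57, 7.92 and 8.69 in high-fat wild-type embryos. It was at 7.96, 8.73 and 9.42 in control-diet knockout embryos and at 7.74, 8.39 and 8.61 in control-diet wild-type embryos. Set B was above set A within every group. The averaged diet difference was -0.41 ± 0.30 and became -0.08 ± 0.15 with array set as a block (SE, n = 6 each, adjusted p = 0.528 and 0.869 by limma). Scd2, the neighbouring desaturase gene, had a set B minus set A difference of -0.13, and its sets overlapped. Whether the probes of these related genes bind each other's transcripts was not tested.

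Stard4, which carries cholesterol between membranes, had the highest knockout minus wild-type difference of all members on the control diet. It was at 7.73, 7.95 and 8.37 in high-fat knockout embryos and at 7.93, 7.90 and 8.17 in high-fat wild-type embryos. It was at 7.94, 8.53 and 8.93 in control-diet knockout embryos and at 7.79, 8.16 and 7.89 in control-diet wild-type embryos. Control-diet knockout embryos 2 and 3 were the highest of the 12, and embryo 1 overlapped the wild type. The control-diet difference was 0.52 ± 0.24 (SE, unadjusted p = 0.0513, adjusted p = 1.00 by limma, n = 3 each). With array set as a block it was 0.52 ± 0.16 (unadjusted p = 0.00655, adjusted p = 1.00 by limma), where 3.13% of all probes had an unadjusted p-value under 0.05. Without control-diet knockout embryo 3 it was 0.29 ± 0.23, within array set A 0.15 and within set B 0.71. On the high-fat diet the difference was 0.01 ± 0.24.

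**Figure D4:**
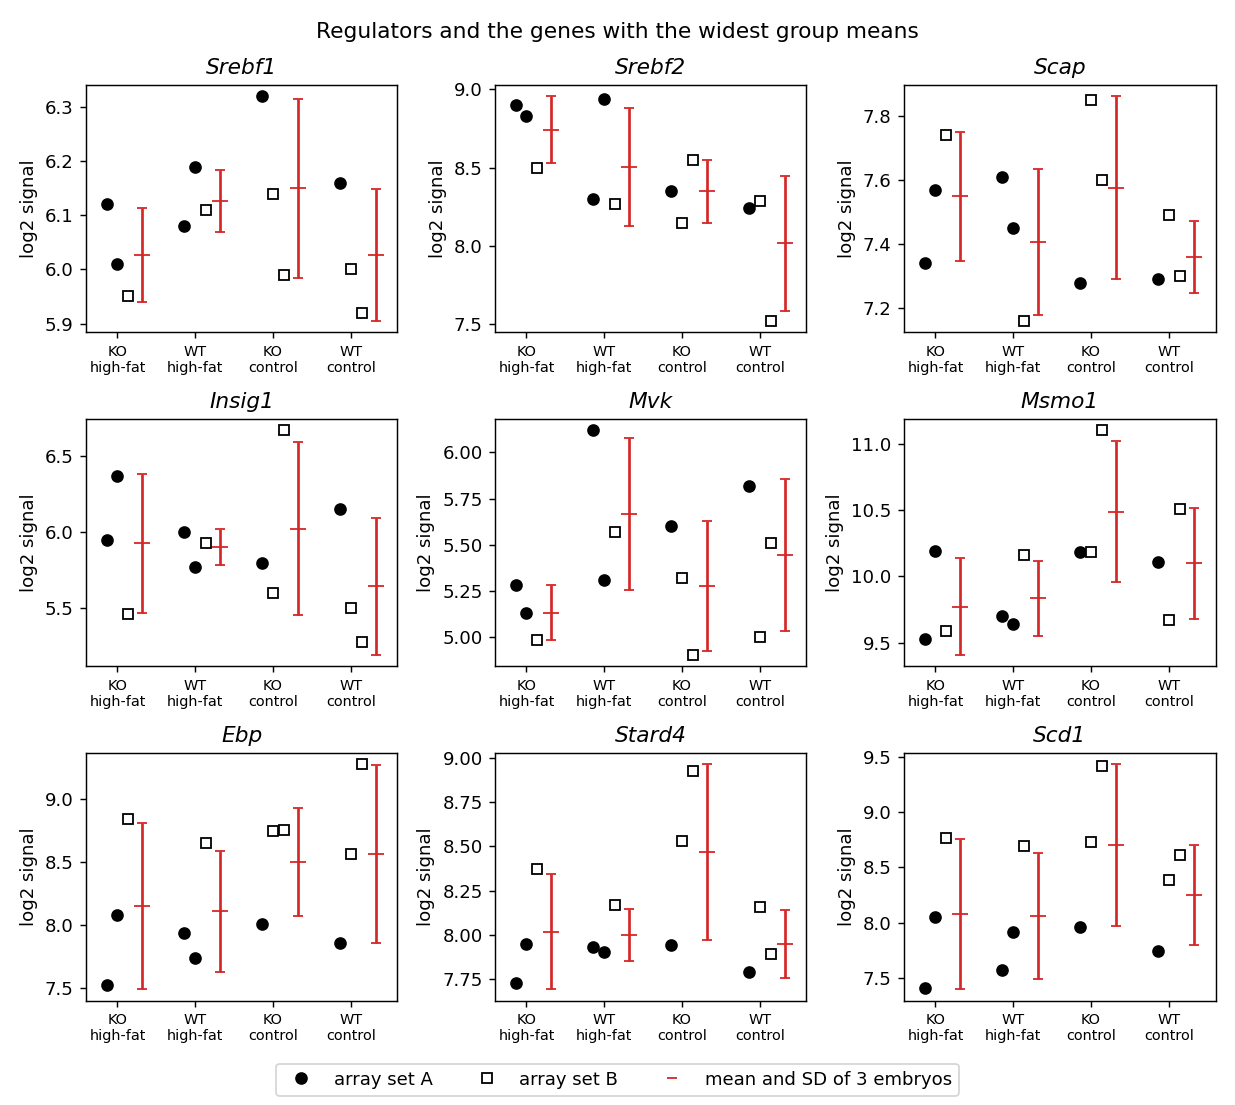
Log2 signal of the 4 regulators and of 5 enzyme and carrier genes in every embryo, by group. Filled circles are arrays of set A and open squares arrays of set B, and red marks give the mean and SD of 3 embryos. In Ebp and Scd1 every open square lies above every filled circle, and in Msmo1, Stard4, Scd1 and Insig1 the topmost point is control-diet knockout embryo 3.

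Among the fatty acid genes Scd1 had the widest range over the embryos and Acly and Elovl6 narrow ones. Acly, ATP citrate lyase, which supplies cytosolic acetyl-CoA, lay between 13.11 and 13.57 over the 12 embryos. Elovl6, an elongase, lay between 10.03 and 10.46. For both genes the diet groups of wild-type embryos did not overlap, as for 7.75% of all probes and, in the opposite direction, the second Sqle probe. Acly was at 13.39, 13.50 and 13.40 in high-fat wild-type embryos, against 13.33, 13.37 and 13.11 in control-diet wild-type embryos. Elovl6 was at 10.22, 10.29 and 10.37 in high-fat wild-type embryos, against 10.11, 10.03 and 10.18 in control-diet wild-type embryos. The differences were 0.16 ± 0.13 for Acly and 0.18 ± 0.14 for Elovl6 (SE, adjusted p = 0.830 for each by limma, n = 3 each). The probe for Fasn, fatty acid synthase, was detected on 5 of 12 arrays and lay between 4.98 and 5.57. Control-diet knockout embryo 3 was highest of the 12 for 2 of these 5 genes, Acly and Scd1.

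Further genes of the pathways were taken from lists of 25 sterol and 25 fatty acid genes, of which 12 and 17 were tested. None of them passed in any comparison. In the averaged diet comparison Nr1h3, a sterol-sensing nuclear receptor gene, had a difference of 0.48 ± 0.20, and Npc1, which exports cholesterol from lysosomes, one of 0.26 ± 0.11 (SE, adjusted p = 0.416 for each by limma, n = 6 each). Among fatty acid genes, Acacb, an acetyl-CoA carboxylase at the mitochondrial surface, had a difference of 0.36 ± 0.14 and Agpat1, an acyltransferase of phospholipid synthesis, one of 0.29 ± 0.13 (adjusted p = 0.410 and 0.416 by limma). These were the genes with an unadjusted p-value under 0.05 in that comparison, 2 of 12 sterol and 2 of 17 fatty acid genes, against 11.8% of all probes. With array set as a block the differences were 0.29 for Nr1h3, 0.20 for Npc1, 0.27 for Acacb and 0.22 for Agpat1. Of the 4, Nr1h3 alone then had an unadjusted p-value under 0.05, with an adjusted p of 0.482 by limma, against 10.1% of all probes. Control-diet knockout embryo 3 stood above all other set B embryos for 2 of the 12 further sterol genes (16.7%) and 5 of the 17 further fatty acid genes (29.4%), against 68% of the members. One of these was Aacs, which makes acetoacetyl-CoA in the cytosol, at 9.99 there and between 8.92 and 9.59 in the other embryos.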

How the data were processed

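Total RNA of 12 mouse embryos was measured on 1-colour Illumina mouse BeadChips. The deposited series table gave an average bead intensity and a detection p-value per probe (BeadStudio 3.2.6 is named in the submitters' processing notes). The deposited single-array tables added the bead standard deviation, the bead number and a detection score that is a fraction. The authors' own log2 values served as an alternative, whose normalization no source used here states. Ranks within each such column matched the signal of the array it is named for (Spearman's rho 1, against 0.949 or less for the other arrays).

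Intensities were corrected and quantile-normalized with neqc in limma 3.58.1 under R 4.3.3, with an offset of 16. Probes detected (p-value under 0.01) on at least 3 of 12 arrays were fitted with 1 mean per group (lmFit, eBayes) and adjusted over all tested probes by the Benjamini-Hochberg method at 0.05. A gene was taken at its brightest tested probe. The number of arrays limits the precision. Levels are not compared between probes. Values in every embryo are given for the 4 regulators and for the 6 genes with the widest range of group means, and for other members where groups did not overlap, which was chosen after values were seen. Array sets were divided at the largest gap (0.967 percentage points, the next 0.880) in the median bead variation of probes with signal over 500. The tests were run on simulated data with independent noise for each probe and no array sets. That check therefore does not cover array sets or variation shared between probes. The members, gene lists and alternatives were chosen with earlier results of these data known.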

Additional observations from a re-analysis of the deposited data

How the results depend on the processing

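Each comparison was repeated under 27 alternatives, 1 of them (array weights with array set as a block) chosen after seeing the data. No member passed in any of them except under limma's array weights. With these, 4 members passed in the averaged diet comparison, while 6128 probes (31.3%) did so. They were Srebf2 (0.60, adjusted p = 0.0122), Ebp (-0.66, 0.0210), Stard4 (-0.37, 0.0324) and Scd1 (-0.59, 0.0395). In wild-type embryos 1 member passed, Srebf2 (0.68, adjusted p = 0.0449), among 1466 probes (7.48%). With array weights and array set as a block together, 0 members passed in each comparison. The weights alone ran between 0.395 (high-fat knockout embryo 3) and 7.43 (high-fat wild-type embryo 2), and limma gave a convergence warning in estimating weights. Over the alternatives that kept all 12 embryos or 1 array set, the number of probes called was between 4 and 120 for genotype averaged over diets, 0 and 1325 on the high-fat diet and 2 and 22 on the control diet. It was between 0 and 6128 for diet averaged over genotypes, 0 and 1466 in wild-type and 0 and 218 in knockout embryos.

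The median over members moved by more than the spread between embryos within array sets and under median scaling. The knockout minus wild-type median on the control diet was -0.01 within set A, and that on the high-fat diet was -0.21 within set B. The diet median in knockout embryos was 0.026 within set A and -0.341 within set B, and the interaction 0.115 within set A and -0.491 within set B. The diet median in wild-type embryos was -0.102 under median scaling. Within a set some groups hold 1 embryo, which is assumed to vary like the others, and the cause was not tested. Leaving out 1 embryo at a time gave medians of 0.044 to 0.157 for genotype averaged over diets, -0.047 to 0.048 on the high-fat and 0.085 to 0.307 on the control diet. It gave -0.054 to 0.021 for diet averaged over genotypes, -0.255 to -0.004 in knockout and 0.027 to 0.145 in wild-type embryos, and -0.289 to -0.085 for the interaction. In each of these fits 0 members passed. Of single-gene values, 4585 kept direction and call or moved within the spread, 5 newly passed and 107 moved further. Values that moved within the spread could change sign. For averaged genotype, Tm7sf2 and Mvd, at 0 and 0.003 in the main fit, did so in 20 and 11 alternatives. For averaged diet, Fdps and Scap, at 0.006 and 0.008, did so in 14 and 11. Mvk kept its sign for genotype, and Srebf2 for both.

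With the replicate number as a replicate block 0 members passed. Each number occurs once in every group, so this block cannot move the medians (0.112 for genotype and -0.013 for diet), and they say nothing about stability. Deviations of embryos with the same title number correlated between -0.525 and 0.367 (over 0.1 in 2 of 6 pairs), and those with the same replicate number between -0.264 and 0.682 (13 of 18 pairs). Most pairs with the same title number lie across the array sets, which these deviations still hold. The correlations therefore cannot decide whether a title number marks a litter. Title numbers were not taken to pair the embryos. Replicate numbers were not either, since not every pair was over 0.1, although their median correlation was 0.385 and embryos 1 all lie in array set A and embryos 3 all in set B. Dim probes (Mvk, Tm7sf2, Fasn and Idi1, detected on 6, 5, 5 and 10 of 12 arrays) limit what can be seen for those genes.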
